A study of Caenorhabditis elegans with 14 samples.

Results

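Lysozymes cut the peptidoglycan of bacterial cell walls. In *C. elegans* they are made largely in the intestine and belong to the secreted antimicrobial proteins that worms raise against ingested bacteria. The genes *lys-1* to *lys-10* encode the protist-type family, named for its likeness to the lysozymes of amoebae, and the ilys genes encode the separate invertebrate-type family. Insulin/IGF-1-like signaling (IIS) reaches this defence through DAF-16, the FOXO transcription factor that enters the nucleus when the insulin receptor DAF-2 is less active. *lys-7* and *lys-8* are widely used as readouts of that branch.

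The 10 genes named *lys-1* to *lys-10* were taken by exact match of the gene name among the 46856 genes of the deposited tables, and all 10 were found. Their exon reads were followed over 14 RNA-seq libraries of whole worms at the L4 to young adult stage, 2 libraries in each of 7 groups. In rIIS (reduced IIS) animals, which are *rrf-3(pk1426);daf-2(e1368)* worms, the groups skn-1i and daf-16i received RNAi against *skn-1* or *daf-16* at 20 °C, and rIIS-C received the empty vector. Among heat-shocked rIIS animals, hsf-1i (HS) received RNAi against *hsf-1* and rIIS-C (HS) received the empty vector. The groups hsf-1i (HS), rIIS-C (HS) and C (HS) were held at 33 °C for 2 h just before harvest. C and C (HS) were *rrf-3(pk1426)* worms on the empty vector, without and with this heat shock. All 7 groups were grown at 20 °C. Every group therefore carried the *rrf-3(pk1426)* allele, which makes worms hypersensitive to RNAi, and every group was fed *E. coli* HT115 from the L1 larva on. *daf-2(e1368)* is a moderate allele. Whole worms hold all tissues, so a lower share of intestinal cells and less RNA per cell cannot be told apart.

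The libraries held between 4681170 and 22767301 exon reads. The share of reads that crossed exon junctions separated 6 libraries with 9.39% to 9.89%, one from each group other than C (HS), from 6 with 22.6% to 26.3%, while both C (HS) libraries lay between them with 14.3% and 16.7%. The study sequenced reads of 2 lengths. Which library had which length was not read from the labels, so the classes are named by junction reads. Values within the classes of few and many junction reads are given where a result turns on them. Levels are reported as CPM, counts scaled to library size after TMM, a correction for the make-up of each library. The target of each RNAi was checked first. *skn-1* had 26.1 and 25.3 CPM in skn-1i, against 153 and 102 CPM in rIIS-C (log2 fold change -2.31, adjusted p = 5.61e-06, edgeR). *hsf-1* had 13.6 and 13.9 CPM in hsf-1i (HS), against 34.1 and 42.0 CPM in rIIS-C (HS) (log2 fold change -1.46, adjusted p = 0.000197). *daf-16* had 51.6 and 40.7 CPM in daf-16i, against 85.9 and 49.8 CPM in rIIS-C, and this difference did not pass the test (log2 fold change -0.55, adjusted p = 0.283).

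The family sits in 2 small clusters and 4 single loci. All positions are in WBcel235 and cover the coding exons, since the exon lengths in the files are multiples of 3 for every member. *lys-1* (chrV:10277908-10278998, + strand), *lys-2* (chrV:10280368-10281444, - strand) and *lys-3* (chrV:10282215-10283444, - strand) are neighbours separated by 1369 and 770 bases with no other gene between them. *lys-4* (chrIV:11621496-11623098), *lys-5* (chrIV:11624296-11625574) and *lys-6* (chrIV:11626962-11627935) lie on the - strand, separated by 1197 and 1387 bases, with the small RNA gene 21ur-8714 as the only other entry in the span. *lys-7* (chrV:3481481-3482599, - strand), *lys-8* (chrII:5586179-5587543, + strand), *lys-9* (chrI:12454853-12455826, - strand) and *lys-10* (chrIV:8332826-8333518, + strand) stand alone.

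Reads of the chromosome IV genes could not always be placed. To which other genes such reads mapped was not examined. Of all exon reads credited to *lys-5*, 42.2% mapped to that gene only, and for *lys-6* the share was 46.9%. For *lys-4* it was 94.7% over all libraries, 88.3% in the libraries with few junction reads and 98.2% in those with many. The other members were at 99.9% or more. Values of *lys-5* and *lys-6* are therefore uncertain, and the library preparation did not keep strand. *lys-4* is also the member for which the study designed a PCR assay, and its primers are shown because they define which stretch of this cluster was addressed, with all letters in lower case since no part is singled out.

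lys-4 forward: caagaatgctagagcagctg
lys-4 reverse: cggttactggcgtgattagc

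Compared per length of coding sequence, with the RPKM values the authors deposited, *lys-1* was the most abundant member in all 7 groups. Its mean RPKM was 1073 in hsf-1i (HS), 1265 in rIIS-C (HS), 828 in C (HS), 1034 in skn-1i, 651 in daf-16i, 569 in rIIS-C and 525 in C, which was between 47.8% of the family's summed RPKM in skn-1i and 65.2% in C (HS). In every group the lower *lys-1* library exceeded the higher library of the member in second place. That place was taken by *lys-4* in C (183 RPKM), by *lys-2* in rIIS-C, daf-16i, C (HS) and rIIS-C (HS), and by *lys-8* in skn-1i and hsf-1i (HS). The summed RPKM of the family was 1875 in hsf-1i (HS), 2582 in rIIS-C (HS), 1269 in C (HS), 2163 in skn-1i, 1246 in daf-16i, 1123 in rIIS-C and 923 in C, with 79.5% to 97.5% of it in the top 3 members. *lys-3*, *lys-5* and *lys-6* stayed at or below 12.9 RPKM in every group mean. RPKM carries no TMM correction, so these values and sums are read within a group and not between groups. For example, *lys-1* had a lower mean RPKM in hsf-1i (HS) than in rIIS-C (HS), but a higher mean CPM (1652 against 1131).

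**Figure D1:**
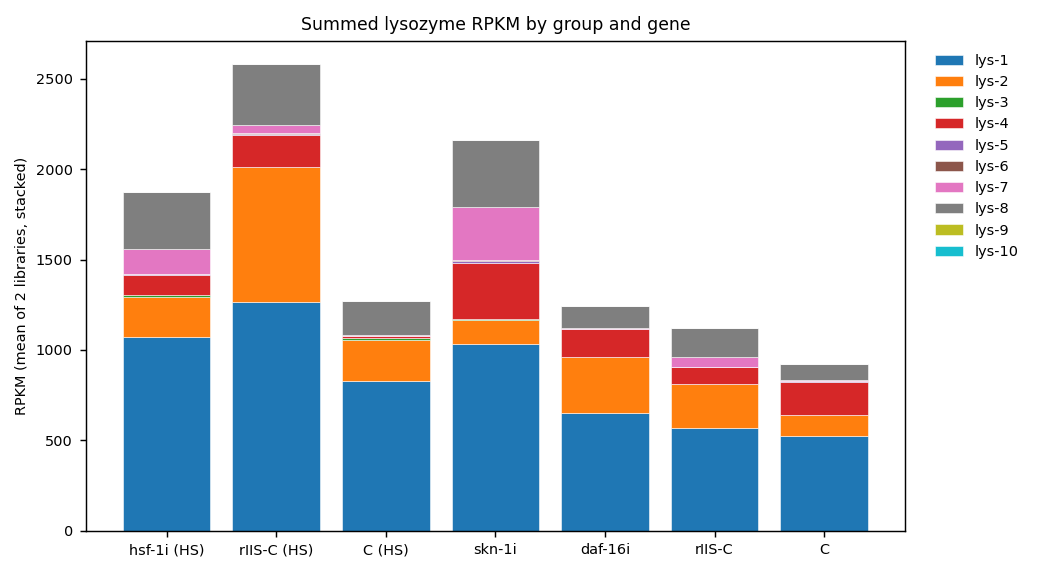
Stacked bars of the deposited RPKM (mean of 2 libraries) of the 10 lysozyme genes in each of the 7 groups. *lys-1* is the largest block in every bar. RPKM carries no TMM correction, so the heights of the bars are not compared between groups.

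*lys-9* and *lys-10* were too rare to be tested. *lys-9* had 5 and 8 reads in the C libraries and 0 reads in the other 12 libraries. Set against a floor of 3 reads summed over the 2 libraries of a group, its level was at least 3.60-fold lower in C (HS), 3.48-fold lower in rIIS-C, 3.16-fold lower in daf-16i and 1.76-fold lower in skn-1i than in C, bounds that cover counting error only. *lys-10* had 6 reads in all, spread over 5 libraries with at most 2 in any one. The other 8 members passed the filter on low counts in each of the fits and are the ones counted below, with calls made at an adjusted p under 0.05 over all genes tested (edgeR quasi-likelihood test, Benjamini-Hochberg).

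The 8 members differed widely in how far they moved. The highest group mean exceeded the lowest 152-fold for *lys-7*, 31.8-fold for *lys-4*, 24.7-fold for *lys-3*, 8.1-fold for *lys-8*, 7.6-fold for *lys-2* and 4.07-fold for *lys-1*. *lys-7* was lowest in daf-16i at 2.66 CPM and highest in skn-1i at 404 CPM. These ranges describe levels and carry no test.

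**Figure D2:**
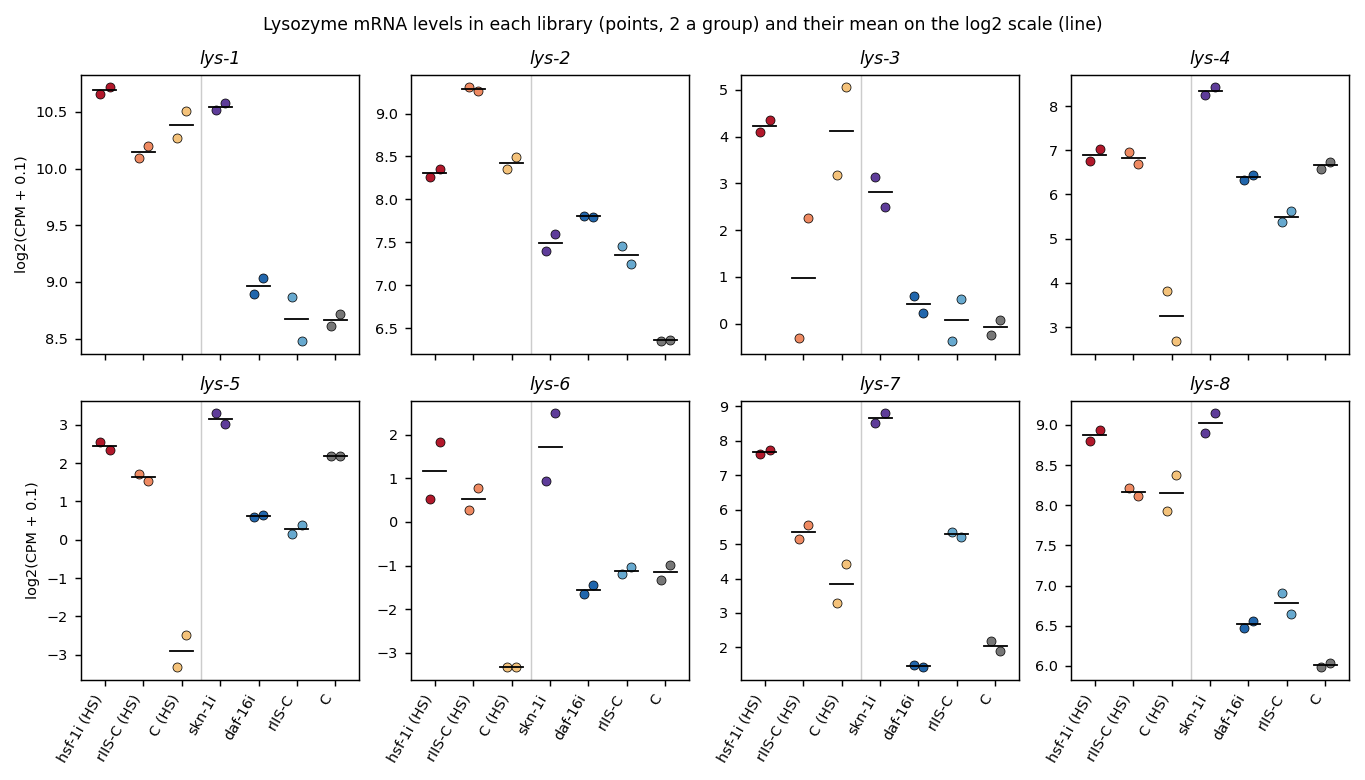
Level of each of the 8 tested lysozyme genes as log2(CPM + 0.1) in the 7 groups, with a point for each of the 2 libraries and a line at their mean. The 3 heat-shocked groups are left of the grey line. *lys-7* lies lowest in daf-16i and highest in skn-1i, and *lys-4*, *lys-5* and *lys-6* lie lowest in C (HS).

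The first comparison asked what reduced insulin signaling alone did to the family at 20 °C. In rIIS-C relative to C, 3 of the 8 members rose (*lys-2*, *lys-7*, *lys-8*), 2 fell (*lys-4*, *lys-5*) and 3 did not pass the test, where 11% of the 13892 genes tested were called, 4.46% higher and 6.54% lower. *lys-7* had 41.1 and 36.8 CPM in rIIS-C, against 4.50 and 3.62 CPM in C. Both rIIS-C libraries were far above both C libraries. The ratio of means was 9.59-fold and the log2 fold change 3.27 ± 0.20 (SE, adjusted p = 4.48e-06), with log2 differences of 3.16 and 3.31 within the classes of few and many junction reads. *lys-2* had 175 and 152 CPM in rIIS-C, against 81.6 and 82.4 CPM in C (log2 fold change 1.00 ± 0.14, adjusted p = 0.000912). *lys-8* rose less, with 120 and 100 CPM in rIIS-C against 63.3 and 65.7 CPM in C (log2 fold change 0.77 ± 0.15, adjusted p = 0.00733), a call that was lost without either C library (adjusted p up to 0.0929 over the alternatives). None of these groups overlapped.

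In the chromosome IV cluster 2 of the 3 genes fell. *lys-4* had 41.4 and 49.1 CPM in rIIS-C, against 96.1 and 107 CPM in C, with a log2 fold change of -1.16 ± 0.17 (adjusted p = 0.0011). *lys-5* had 1.01 and 1.20 CPM in rIIS-C, against 4.42 and 4.43 CPM in C (log2 fold change -1.94 ± 0.26, adjusted p = 0.000657), and with reads that map to 1 place only the log2 fold change was -1.91. In neither gene did the groups overlap. *lys-1*, the most abundant member, had 465 and 357 CPM in rIIS-C, against 390 and 421 CPM in C, and its log2 fold change of 0.02 had a 95% interval between -0.33 and 0.37 (adjusted p = 0.958). *lys-3* and *lys-6* were also not called (log2 fold changes 0.40 and 0.06). The 11 intestinal markers summed to 1902 to 3126 CPM in rIIS-C, against 3017 to 3294 CPM in C, with *ges-1* higher and none lower. Over the 8 members the median log2 fold change was 0.23, beside 0.06 over all genes tested.

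Knockdown of *daf-16* in rIIS animals called 2 of the 8 members, *lys-4* higher and *lys-7* lower, where 6.07% of all genes tested were called, 3.29% higher and 2.78% lower. *lys-7* had 2.72 and 2.60 CPM in daf-16i, against 41.1 and 36.8 CPM in rIIS-C. The daf-16i libraries were far below the rIIS-C libraries. The log2 fold change of *lys-7* was -3.87 ± 0.22 (adjusted p = 1.91e-06), with -3.87 and -3.77 within the classes of few and many junction reads. *lys-4* had 80.8 and 86.4 CPM in daf-16i, against 41.4 and 49.1 CPM in rIIS-C (log2 fold change 0.88 ± 0.17, adjusted p = 0.00909). The groups did not overlap, but the call was lost without either daf-16i library, when all 14 libraries or only these 2 groups were fitted, and with library totals in place of TMM (adjusted p up to 0.179).

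The remaining members were not called under daf-16i by edgeR. *lys-2* had 224 and 222 CPM in daf-16i, against 175 and 152 CPM in rIIS-C (log2 fold change 0.45, adjusted p = 0.0983), and it was called under 4 of 14 alternatives, DESeq2 and a block for the class of junction reads among them (adjusted p down to 0.0245). *lys-8* had 88.8 and 94.3 CPM in daf-16i, against 120 and 100 CPM in rIIS-C (log2 fold change -0.26, adjusted p = 0.402). Thus *lys-7* and *lys-8*, which both rose in rIIS-C over C, had log2 fold changes of -3.87 and -0.26 under daf-16i, a contrast between the 2 genes that was not tested. The median over the 8 members was 0.18, beside -0.03 over all genes tested.

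Setting daf-16i beside C shows where the double change left each member, in comparisons that share libraries with the preceding ones. Of the 8 members, *lys-2* was higher and *lys-5* lower, where 1.59% of all genes tested were called, 0.382% higher and 1.21% lower. *lys-2* had 224 and 222 CPM in daf-16i, against 81.6 and 82.4 CPM in C (log2 fold change 1.45 ± 0.14, adjusted p = 0.000552), and the groups were clearly apart. *lys-5* had 1.42 and 1.47 CPM in daf-16i, against 4.42 and 4.43 CPM in C (log2 fold change -1.61 ± 0.25, adjusted p = 0.00745). The *lys-5* call was lost without any one of the 4 libraries, in the fit of all 14 libraries and with uniquely mapped reads (adjusted p up to 0.185). *lys-7* had 2.72 and 2.60 CPM in daf-16i, against 4.50 and 3.62 CPM in C, a difference that did not pass the test although the libraries did not overlap (log2 fold change -0.60, 95% interval -1.11 to -0.09, adjusted p = 0.443).

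Knockdown of *skn-1*, the Nrf-like factor of oxidative and xenobiotic defence, gave the broadest change. In skn-1i relative to rIIS-C, 7 of the 8 members rose and *lys-2* did not pass the test, where 56.2% of all genes tested were called, 25.7% higher and 30.6% lower. This count holds *lys-6*, whose call is no support for the reason given below. The median log2 fold change was 2.71 over the 8 members, beside -0.13 over all genes tested. *lys-7* had 365 and 444 CPM in skn-1i, against 41.1 and 36.8 CPM in rIIS-C (10.4-fold, log2 fold change 3.38 ± 0.19, adjusted p = 4.58e-07). *lys-8* had 479 and 566 CPM in skn-1i, against 120 and 100 CPM in rIIS-C (log2 fold change 2.25 ± 0.16, adjusted p = 1.28e-06). *lys-1* had 1461 and 1528 CPM in skn-1i, against 465 and 357 CPM in rIIS-C (log2 fold change 1.86 ± 0.17, adjusted p = 5.38e-06). The skn-1i libraries lay above the rIIS-C libraries in each of these genes by several times the distance between replicates.

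The 3 genes of the chromosome IV cluster all had higher levels in skn-1i than in rIIS-C. *lys-4* had 305 and 344 CPM in skn-1i, against 41.4 and 49.1 CPM in rIIS-C (log2 fold change 2.84 ± 0.18, adjusted p = 6.86e-07). *lys-5* had 9.73 and 7.96 CPM in skn-1i, against 1.01 and 1.20 CPM in rIIS-C (log2 fold change 2.92 ± 0.27, adjusted p = 6.47e-06). *lys-6* had 1.82 and 5.50 CPM in skn-1i, against 0.337 and 0.386 CPM in rIIS-C, from 9 and 47 reads in skn-1i and 2 and 8 reads in rIIS-C (log2 fold change 3.33 ± 0.64, adjusted p = 0.00104). *lys-6* passed the filter on low counts through libraries of skn-1i and of heat-shocked rIIS animals, where it was high. Its call in skn-1i is therefore no support. The 3 genes may share reads, so these counts cannot be taken as independent. With uniquely mapped reads *lys-4* and *lys-5* gave log2 fold changes of 2.85 and 3.15, and *lys-6* no longer passed the filter.

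Within the chromosome V cluster the neighbours parted under skn-1i. *lys-2* had 168 and 194 CPM in skn-1i, against 175 and 152 CPM in rIIS-C, with overlapping libraries and a log2 fold change of 0.15 (95% interval -0.16 to 0.46, adjusted p = 0.398). *lys-3* had 8.71 and 5.50 CPM in skn-1i, against 0.673 and 1.35 CPM in rIIS-C (log2 fold change 2.59 ± 0.64, adjusted p = 0.00519), without overlap.

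The scaling bears on these values. The TMM factors ran between 0.658 and 1.63. With library totals alone the median log2 fold change over all genes was -1.10 in skn-1i minus rIIS-C, -0.85 in hsf-1i (HS) minus rIIS-C (HS), -0.97 in C (HS) minus C and 0.80 in rIIS-C (HS) minus C (HS), whereas with TMM it lay between -0.13 and 0.06 in every comparison. Under library totals *lys-2* was lower in skn-1i (log2 fold change -0.81, adjusted p = 0.00013), and *lys-3* kept its direction without passing the test (adjusted p = 0.0506). The other 6 members rose in skn-1i with this scaling too.

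Markers of several tissues moved in the same libraries. The summed level of 11 intestinal markers was 11922 to 12632 CPM in skn-1i, against 1902 to 3126 CPM in rIIS-C, with 5 of the 11 higher, 3 lower and none at 0. The protease gene *asp-1* had 9918 and 9299 CPM of this in skn-1i, against 1524 and 713 CPM in rIIS-C, and without it, a choice made after its values were seen, the sums were 2623 to 2714 CPM in skn-1i, against 1189 to 1602 CPM in rIIS-C. The 6 vitellogenin genes of the adult intestine went both ways, with *vit-2* and *vit-6* higher and *vit-1*, *vit-3* and *vit-4* lower (median log2 fold change -1.37). For 6 body-wall muscle markers the sums were 11686 to 12507 CPM in skn-1i, against 1210 to 1728 CPM in rIIS-C, with 4 of the 6 higher. For 6 neuronal markers they were 424 to 442 CPM in skn-1i, against 138 to 162 CPM in rIIS-C, with 3 higher and 2 lower, and all 4 pharyngeal muscle markers were higher. Their part in the lysozyme values was not tested.

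Relative to C, all 8 tested members rose in skn-1i, where 59.5% of all genes tested were called, 28.5% higher and 31.1% lower. The call of *lys-6* is again no support, since it passed the filter through groups where it was high. *lys-7* had 365 and 444 CPM in skn-1i, against 4.50 and 3.62 CPM in C, a ratio of means of 99.6-fold (log2 fold change 6.65 ± 0.23, adjusted p = 1.11e-08). *lys-8* reached 8.10-fold and *lys-1* 3.69-fold the level in C. *lys-4*, which was lower in rIIS-C than in C, was 3.20-fold higher in skn-1i than in C (log2 fold change 1.68, adjusted p = 9.54e-06). *lys-5* had the smallest change (log2 fold change 0.99 ± 0.22, adjusted p = 0.00258), and with library totals it was 0.15 and not called.

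**Figure D3:**
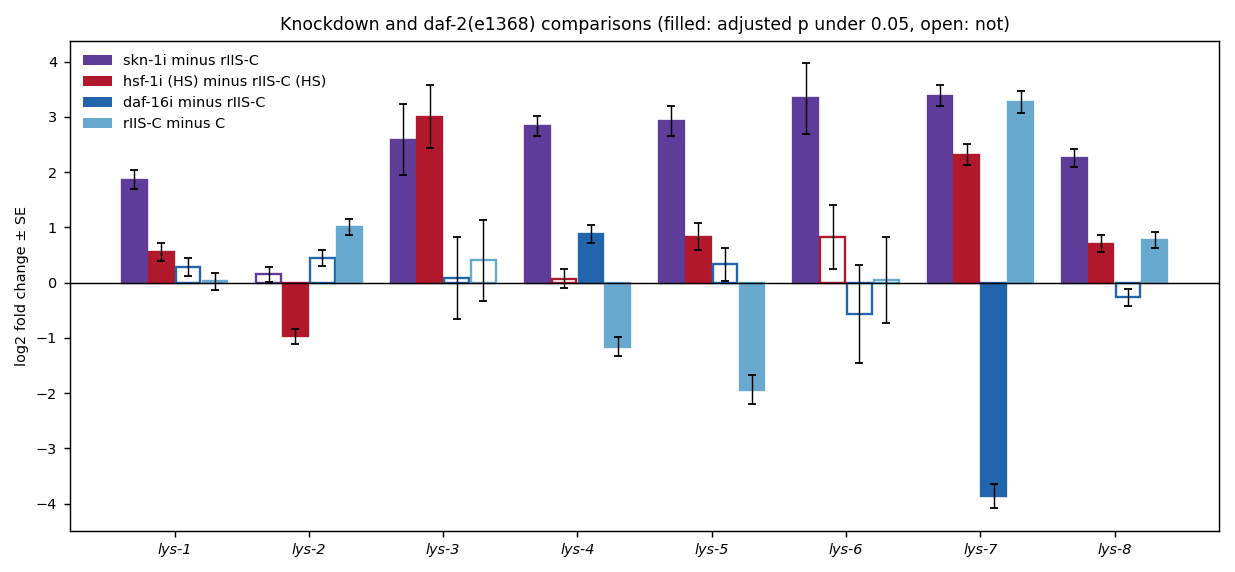
Log2 fold change with its standard error for the 8 tested lysozyme genes in skn-1i minus rIIS-C, hsf-1i (HS) minus rIIS-C (HS), daf-16i minus rIIS-C and rIIS-C minus C. Filled bars passed an adjusted p of 0.05. *lys-7* reached 3.38 in skn-1i and -3.87 in daf-16i, and 7 of the 8 bars for skn-1i are filled and positive.

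Knockdown of *hsf-1*, the heat shock factor, was examined after heat shock. In hsf-1i (HS) relative to rIIS-C (HS), 5 members rose (*lys-1*, *lys-3*, *lys-5*, *lys-7*, *lys-8*), *lys-2* fell, and *lys-4* and *lys-6* did not pass the test, where 38.1% of all genes tested were called, 18.8% higher and 19.3% lower. *lys-7* had 194 and 213 CPM in hsf-1i (HS), against 35.6 and 46.5 CPM in rIIS-C (HS), with no overlap (4.95-fold, log2 fold change 2.32 ± 0.18, adjusted p = 1.36e-05). *lys-3* had 17.1 and 20.4 CPM in hsf-1i (HS), against 0.713 and 4.68 CPM in rIIS-C (HS) (log2 fold change 3.0 ± 0.57, adjusted p = 0.00182). The rIIS-C (HS) libraries of *lys-3* stood apart from each other, and the log2 differences within the classes of few and many junction reads were 1.84 and 4.66.

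*lys-2* was the member that fell, with 307 and 327 CPM in hsf-1i (HS), against 633 and 613 CPM in rIIS-C (HS) (log2 fold change -0.97 ± 0.14, adjusted p = 0.000367). *lys-8* had 446 and 489 CPM in hsf-1i (HS), against 297 and 278 CPM in rIIS-C (HS) (log2 fold change 0.71 ± 0.15, adjusted p = 0.00372). *lys-1* had 1619 and 1684 CPM in hsf-1i (HS), against 1089 and 1173 CPM in rIIS-C (HS) (log2 fold change 0.55 ± 0.16, adjusted p = 0.0189). With library totals *lys-1* and *lys-8* turned to -0.25 and -0.10 and were not called, so their direction rests on the TMM scaling. Leaving out any one of the 4 libraries also ended the call of *lys-1*. *lys-5* had 5.73 and 4.97 CPM in hsf-1i (HS), against 3.17 and 2.81 CPM in rIIS-C (HS) (log2 fold change 0.83 ± 0.25, adjusted p = 0.0205), a call lost under 8 of 14 alternatives.

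*lys-4* had 108 and 131 CPM in hsf-1i (HS), against 125 and 103 CPM in rIIS-C (HS), with overlapping libraries (log2 fold change 0.07, 95% interval -0.29 to 0.44, adjusted p = 0.77), and with library totals it was lower (-0.73, adjusted p = 0.00775). The median over the 8 members was 0.76, beside -0.05 over all genes tested. The 11 intestinal markers summed to 15382 to 16528 CPM in hsf-1i (HS), against 6002 to 7391 CPM in rIIS-C (HS), with 4 higher, 2 lower and none at 0, and without *asp-1* the sums were 4548 to 4592 CPM in hsf-1i (HS), against 2532 to 2637 CPM in rIIS-C (HS). The 6 neuronal markers summed to 508 to 510 CPM in hsf-1i (HS), against 150 to 164 CPM in rIIS-C (HS), with 3 higher. The 6 body-wall muscle markers summed to 9500 to 10004 CPM in hsf-1i (HS), against 2704 to 3122 CPM in rIIS-C (HS), with 4 higher, and the 4 pharyngeal muscle markers to 230 to 267 CPM in hsf-1i (HS), against 44.6 to 52.3 CPM in rIIS-C (HS), with 3 higher. Their part in the lysozyme values was not tested.

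In control animals the family split after heat shock. Both C (HS) libraries also stood apart from all others in their share of junction reads and in the mapped share the study reports. Heat shock and this library difference cannot be told apart here. The library difference also enters every other comparison with C (HS). In C (HS) relative to C, *lys-1*, *lys-2*, *lys-3*, *lys-7* and *lys-8* rose and the 3 genes of the chromosome IV cluster fell, so that all 8 were called, where 52.3% of all genes tested were called, 27.4% higher and 24.9% lower. *lys-1* had 1232 and 1454 CPM in C (HS), against 390 and 421 CPM in C (log2 fold change 1.73 ± 0.19, adjusted p = 2.84e-05). *lys-2* had 326 and 359 CPM in C (HS), against 81.6 and 82.4 CPM in C (log2 fold change 2.06 ± 0.18, adjusted p = 7.11e-06). *lys-8* had 243 and 331 CPM in C (HS), against 63.3 and 65.7 CPM in C (log2 fold change 2.15 ± 0.21, adjusted p = 1.18e-05). The heat-shocked libraries were far above the others in these 3 genes. *lys-7* had 9.61 and 21.4 CPM in C (HS), against 4.50 and 3.62 CPM in C (log2 fold change 1.93 ± 0.33, adjusted p = 0.000394). *lys-3* had 8.94 and 33.2 CPM in C (HS), against 0.750 and 0.956 CPM in C (log2 fold change 4.59 ± 0.76, adjusted p = 0.000326). For *lys-3* and *lys-7* the C (HS) libraries differed from each other by more than 2-fold, yet neither overlapped C.

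*lys-4* had 14.1 and 6.34 CPM in C (HS), against 96.1 and 107 CPM in C (log2 fold change -3.31 ± 0.31, adjusted p = 1.01e-05). The level was 9.94-fold lower. *lys-5* had 0 and 1 read in C (HS), against 59 and 88 reads in C, a scaled ratio of C over C (HS) of 122 with a 95% counting interval of 21.6 to 4861. *lys-6* had 0 reads in both C (HS) libraries, against 4 and 8 reads in C, which makes it at least 3.33-fold lower at a floor of 3 reads over the group, and its call was lost without either C (HS) library and with uniquely mapped reads. The median over the 8 members was 1.83, also with *lys-6* placed at its bound, beside 0.03 over all genes tested. Of the 11 intestinal markers, which summed to 7303 to 9690 CPM in C (HS), against 3017 to 3294 CPM in C, 6 were higher, 2 lower and none at 0, and without *asp-1* the sums were 2829 to 3376 CPM in C (HS), against 1660 to 1745 CPM in C. The 4 pharyngeal muscle markers summed to 92.4 to 295 CPM in C (HS), against 52.0 to 53.8 CPM in C, with 3 higher, and the 6 body-wall muscle markers to 5680 to 7958 CPM in C (HS), against 2390 to 2531 CPM in C, with 3 higher and 3 lower. The part of these markers in the lysozyme values was not tested.

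In rIIS animals the same heat shock gave a different pattern for the cluster. In rIIS-C (HS) relative to rIIS-C, *lys-1*, *lys-2*, *lys-4* and *lys-8* rose, no member fell and 4 did not pass the test, where 2.21% of all genes tested were called, 1.89% higher and 0.32% lower. *lys-2* had 633 and 613 CPM in rIIS-C (HS), against 175 and 152 CPM in rIIS-C (log2 fold change 1.93 ± 0.18, adjusted p = 0.000485). *lys-1* had 1089 and 1173 CPM in rIIS-C (HS), against 465 and 357 CPM in rIIS-C (log2 fold change 1.46 ± 0.19, adjusted p = 0.00344). *lys-8* had 297 and 278 CPM in rIIS-C (HS), against 120 and 100 CPM in rIIS-C (log2 fold change 1.39 ± 0.21, adjusted p = 0.00556). These libraries did not overlap, and with only these 2 groups fitted *lys-1* and *lys-8* lost their calls.

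*lys-4* had 125 and 103 CPM in rIIS-C (HS), against 41.4 and 49.1 CPM in rIIS-C (log2 fold change 1.33 ± 0.29, adjusted p = 0.031). The call was lost without any one of the 4 libraries. It was also lost with uniquely mapped reads, with library totals and with only these groups fitted. The log2 fold change was 1.00 to 1.47 over the alternatives, and the log2 differences within the classes of few and many junction reads were 1.32 and 1.35. *lys-5* and *lys-6* had log2 fold changes of 1.40 (adjusted p = 0.0728) and 1.8 (adjusted p = 0.226). Both were called in a fit of the 12 libraries without C (HS) with a block for the class of junction reads (adjusted p = 0.00645 and 0.0466). This alternative was chosen after the data were seen. It brought the members called to 6, where 21.2% of all genes tested were called, 11.8% higher and 9.45% lower. *lys-7* had 35.6 and 46.5 CPM in rIIS-C (HS), against 41.1 and 36.8 CPM in rIIS-C, with overlapping libraries (log2 fold change 0.08, 95% interval -0.57 to 0.72, adjusted p = 0.926). *lys-3* had 0.713 and 4.68 CPM in rIIS-C (HS), against 0.673 and 1.35 CPM in rIIS-C, with overlap. The median over the 8 members was 1.39, beside -0.03 over all genes tested. The 11 intestinal markers summed to 6002 to 7391 CPM in rIIS-C (HS), against 1902 to 3126 CPM in rIIS-C, with 4 higher (*act-5*, *asp-1*, *ges-1*, *vha-6*), none lower and none at 0. Without *asp-1* the sums were 2532 to 2637 CPM in rIIS-C (HS), against 1189 to 1602 CPM in rIIS-C. The part of these markers in the lysozyme values was not tested.

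**Figure D4:**
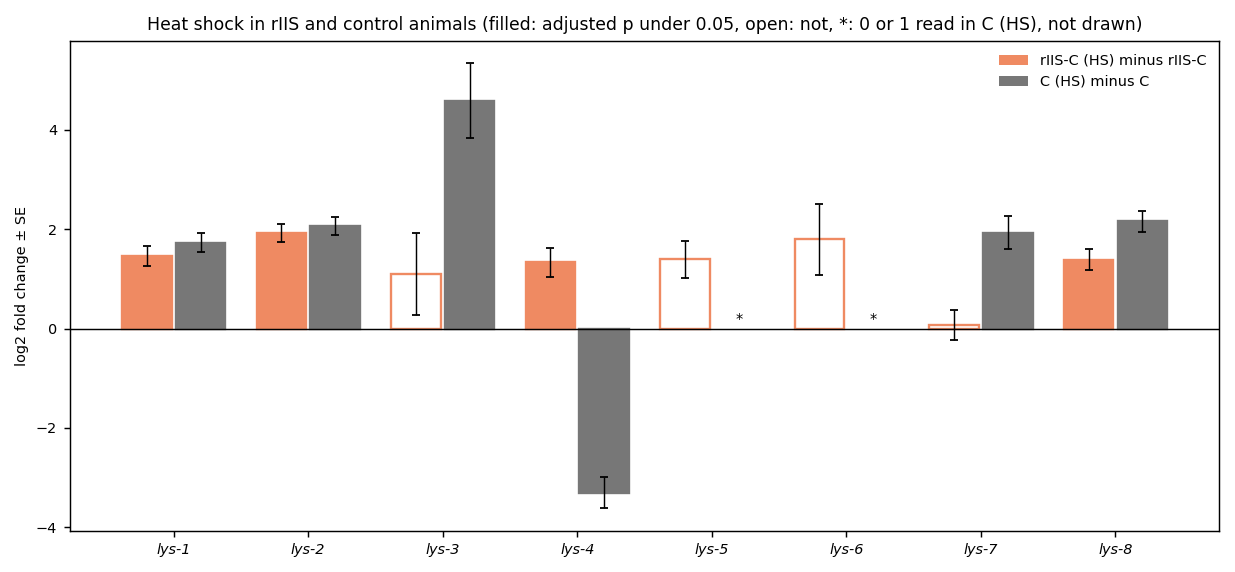
Log2 fold change with its standard error after heat shock in rIIS animals (rIIS-C (HS) minus rIIS-C) and in control animals (C (HS) minus C). Filled bars passed an adjusted p of 0.05, and stars mark *lys-5* and *lys-6*, which had 1 and 0 reads in C (HS) and are not drawn. *lys-4* was at 1.33 in rIIS animals and at -3.31 in control animals.

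The difference between the 2 heat responses was tested directly as an interaction over all 14 libraries. The library difference of C (HS) enters this test and cannot be told apart from a difference in heat response. The interaction passed for 5 of the 8 members, where 20.5% of all genes tested were called, 9.97% higher and 10.6% lower. Of these, *lys-4*, *lys-5* and *lys-6* were higher in rIIS animals and *lys-3* and *lys-7* lower. The call of *lys-6* is no support, since it passed the filter through groups where it was high. For *lys-4* the difference was 4.64 on the log2 scale (SE 0.43, adjusted p = 5e-05), and for *lys-7* it was -1.86 (SE 0.44, adjusted p = 0.0137). For *lys-7* it was lost with library totals, with only the 4 groups compared and without C replicate 2 (adjusted p up to 0.067), and for *lys-6* it was lost without C replicate 2. For *lys-3* it was -3.49 (SE 1.11, adjusted p = 0.042), lost under 10 of 16 alternatives. *lys-2* had a difference of -0.14 (95% interval -0.68 to 0.41, adjusted p = 0.73), *lys-1* of -0.27 (95% interval -0.85 to 0.31, adjusted p = 0.5) and *lys-8* of -0.77 (95% interval -1.39 to -0.15, adjusted p = 0.0726). Without C replicate 2 the number of members called was 2.

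After heat shock, rIIS-C (HS) was therefore also set beside C (HS). The strain and the library difference of C (HS) cannot be told apart in this comparison. Of the 8 members, *lys-2*, *lys-4*, *lys-5*, *lys-6* and *lys-7* were higher and *lys-3* lower, where 24.9% of the 13149 genes tested were called, 10.4% higher and 14.5% lower. *lys-4* had 125 and 103 CPM in rIIS-C (HS), against 14.1 and 6.34 CPM in C (HS) (11.2-fold, log2 fold change 3.40 ± 0.42, adjusted p = 0.00318). *lys-5* had 49 and 21 reads in rIIS-C (HS), against 0 and 1 read in C (HS), a scaled ratio of 84.4 with a 95% counting interval of 14.7 to 3380. *lys-6* was at least 11.7-fold higher in rIIS-C (HS), with 17 and 12 reads against 0 in C (HS). In this fit *lys-5* and *lys-6* passed the filter on low counts through rIIS-C (HS) and hsf-1i (HS), where they were high. Their calls against C (HS) are therefore no support. *lys-7* had 35.6 and 46.5 CPM in rIIS-C (HS), against 9.61 and 21.4 CPM in C (HS) (log2 fold change 1.36 ± 0.36, adjusted p = 0.0308). *lys-8* had 297 and 278 CPM in rIIS-C (HS), against 243 and 331 CPM in C (HS), and its libraries overlapped (log2 fold change -0.05, 95% interval -0.59 to 0.48). The 4 pharyngeal muscle markers summed to 44.6 to 52.3 CPM in rIIS-C (HS), against 92.4 to 295 CPM in C (HS), with 3 lower, and of the 11 intestinal markers 3 were higher and 1 lower. Their part in the lysozyme values was not tested.

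These 6 calls depended on both rIIS-C (HS) libraries. Without rIIS-C (HS) replicate 2 none of them was kept, and without replicate 1 only those of *lys-4* and *lys-5* were. The 6 directions were the same. With 1 library left in rIIS-C (HS), far fewer of all genes tested were called as well, so the loss was not particular to the members. The values of *lys-4* stood far apart between the groups in both cases (log2 fold change 3.02 to 4.30 over the alternatives). *lys-2* (log2 fold change 0.80, adjusted p = 0.0313) and *lys-3* (log2 fold change -3.13, adjusted p = 0.0324) were closest to the threshold, and *lys-2* had an adjusted p of 0.0674 with the replicate numbers of the labels as a block.

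In hsf-1i (HS) relative to C (HS), *lys-4*, *lys-5*, *lys-6* and *lys-7* were higher and the other 4 did not pass the test, where 21.3% of all genes tested were called, 9.93% higher and 11.3% lower. *lys-7* had 194 and 213 CPM in hsf-1i (HS), against 9.61 and 21.4 CPM in C (HS) (13.1-fold, log2 fold change 3.72 ± 0.39, adjusted p = 0.00195). *lys-4* had 108 and 131 CPM in hsf-1i (HS), against 14.1 and 6.34 CPM in C (HS) (log2 fold change 3.52 ± 0.42, adjusted p = 0.00276). *lys-6* was at least 20.7-fold higher in hsf-1i (HS), with 10 and 20 reads against 0 in C (HS), and its call was lost without hsf-1i (HS) replicate 2. Because *lys-5* and *lys-6* passed the filter through the groups where they were high, their calls are no support here either. The library difference of C (HS) cannot be told apart from the changes in this comparison. *lys-2*, which fell in hsf-1i (HS) relative to rIIS-C (HS), had 307 and 327 CPM in hsf-1i (HS), against 326 and 359 CPM in C (HS), with overlap (log2 fold change -0.12, 95% interval -0.61 to 0.36, adjusted p = 0.706).

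Correlations of log2 CPM over the 14 libraries are given as a description with no test, since libraries of 1 group share their treatment. Within the chromosome IV cluster r was 0.945 for *lys-4* and *lys-5*, 0.837 for *lys-4* and *lys-6* and 0.827 for *lys-5* and *lys-6*, genes that may share reads. Among the others it was 0.965 for *lys-1* and *lys-8*, 0.853 for *lys-7* and *lys-8* and 0.837 for *lys-1* and *lys-3*, while *lys-2* ran lower, between 0.283 with *lys-7* and 0.640 with *lys-1*. Between the chromosome IV genes and the other 5 members the values were spread widely, between -0.245 for *lys-2* and *lys-5* and 0.772 for *lys-6* and *lys-7*.

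Each member was also set against the 8030 or 8031 other tested genes with a mean of at least 10 CPM. The 3 most like *lys-7* were W01A11.1 (r = 0.988), ttr-44 (0.979) and Y34F4.1 (0.976). Those most like *lys-8* were T21H3.1 (0.990), clec-83 (0.973) and ZK1320.3 (0.970), and those most like *lys-1* were C24B9.3 (0.977), ctsa-1.2 (0.976) and F19C7.1 (0.970). For *lys-2* they were the C-type lectin genes clec-265 (0.959) and clec-186 (0.921) and K12H4.7 (0.877), and for *lys-3* aps-3 (0.952), unc-69 (0.947) and homt-1 (0.946). For *lys-4* they were Y57G11C.31 (0.946), F13B6.3 (0.945) and vap-2 (0.943). *lys-5* was most like oac-46 (0.958), its neighbour *lys-4* (0.945) and B0507.2 (0.935), and *lys-6* was most like bgal-2 (0.944), Y43C5A.2 (0.933) and C17F4.7 (0.932).

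The second lysozyme family and known regulators of immune genes were examined as a list of 19 genes, 17 of which could be tested at 20 °C. It held *ilys-1* to *ilys-6*, the p38 MAPK cascade (*tir-1*, *nsy-1*, *sek-1*, *pmk-1*, *atf-7*), the intestinal GATA factors *elt-2* and *elt-7*, and *hlh-30*, *zip-2*, *pqm-1*, *bar-1*, *dbl-1* and *sma-3*. *ilys-1* and *ilys-6* were too rare to be tested, and *ilys-4*, *atf-7*, *elt-2* and *dbl-1* were not called by edgeR in any of the comparisons. In rIIS-C relative to C, where 11% of all genes tested were called, only *ilys-5* of the 17 was called, with 131 and 150 CPM in rIIS-C against 219 and 246 CPM in C (log2 fold change -0.72, adjusted p = 0.0408, lost without any one of the 4 libraries). In daf-16i relative to rIIS-C, where 6.07% of all genes tested were called, only *tir-1*, which encodes the TIR-domain adaptor at the head of the p38 MAPK cascade, was called, with 14.1 and 13.1 CPM in daf-16i against 20.9 and 21.6 CPM in rIIS-C (log2 fold change -0.65, adjusted p = 0.0212), a call lost under 6 of 14 alternatives. In skn-1i relative to rIIS-C 8 of the 17 were called higher (*ilys-2*, *ilys-3*, *ilys-5*, *sek-1*, *tir-1*, *zip-2*, *pqm-1*, *sma-3*) and none lower, where 25.7% of all genes tested were higher and 30.6% lower. This count holds *ilys-2* and *ilys-3*, whose calls are no support for the reason given next.

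*ilys-3*, an invertebrate-type lysozyme that is raised on Gram-positive bacteria, had 8.92 and 13.3 CPM in skn-1i, against 0.505 and 0.193 CPM in rIIS-C. *ilys-2* had 1.82 and 1.99 CPM in skn-1i, and 0 reads in both rIIS-C libraries. Both passed the filter on low counts through the skn-1i libraries, where they were high, so their calls in any comparison are no support and no test is given. *sek-1*, the MAPK kinase of the p38 cascade, had 34.5 and 40.5 CPM in skn-1i, against 24.7 and 21.6 CPM in rIIS-C (log2 fold change 0.71, adjusted p = 0.00183), and with library totals it turned to -0.26. In hsf-1i (HS) relative to rIIS-C (HS) 6 of the 17 were called higher (*ilys-3*, *hlh-30*, *pqm-1*, *sek-1*, *tir-1*, *zip-2*), where 18.8% of all genes tested were higher. *hlh-30*, the TFEB-like factor of autophagy and host defence, had 55.0 and 51.9 CPM in hsf-1i (HS), against 27.1 and 24.6 CPM in rIIS-C (HS) (log2 fold change 1.05, adjusted p = 0.000271), and with library totals it was 0.24 and not called (adjusted p = 0.181).

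In C (HS) relative to C 3 of the 17 were called higher (*elt-7*, *pqm-1*, *zip-2*) and 4 lower (*bar-1*, *nsy-1*, *pmk-1* and *ilys-2*, which was at most at 0.201 CPM in C), where 27.4% of all genes tested were higher and 24.9% lower. *pmk-1*, the p38 MAP kinase itself, had 4.34 and 5.86 CPM in C (HS), against 15.9 and 13.9 CPM in C (log2 fold change -1.55, adjusted p = 0.000167), and *nsy-1*, the kinase upstream of *sek-1*, had 10.9 and 6.97 CPM in C (HS), against 58.5 and 52.2 CPM in C (log2 fold change -2.62, adjusted p = 7.2e-05). *zip-2*, a bZIP factor of the pathogen response, rose, with 245 and 260 CPM in C (HS) against 72.2 and 78.2 CPM in C (log2 fold change 1.75, adjusted p = 1.58e-05). In rIIS-C (HS) relative to rIIS-C, where 2.21% of all genes tested were called, edgeR called 0 of the 17, with 2 at an unadjusted p under 0.05, and DESeq2 called 2 (*ilys-5* and *zip-2*). The edgeR test of the difference between the 2 heat responses called 20.5% of all genes tested. Among them were *pmk-1* (1.67, adjusted p = 0.00509) and *nsy-1* (2.24, adjusted p = 0.00738), both higher in rIIS animals. *zip-2* (-1.07, adjusted p = 0.0124) and *pqm-1* (-1.15, adjusted p = 0.0147) were both lower. Over the alternatives *nsy-1* ran between 1.11 and 2.96. The library difference of C (HS) enters this test and C (HS) minus C, and cannot be told apart from heat shock. The call of *zip-2* was lost with library totals, with only the 4 groups compared and without C replicate 1 (adjusted p up to 0.261).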

How the data were processed

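RNA of whole worms was sequenced as single-end TruSeq libraries that do not keep strand, 2 biological replicates a group, chosen by the study from 3 by RNA integrity. Per the submitters' processing notes, bases were called with CASAVA 1.8.2, and reads were mapped to WBcel235 in CLC Genomics Workbench. The deposited count columns hold exon reads per gene, total and uniquely mapped, and junction reads. The deposited RPKM columns are the authors' exon reads scaled to exon length and to mapped reads. In 2 files 6 unnamed columns were left out.

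Total exon reads were fitted with edgeR 4.0.16 (quasi-likelihood test, filterByExpr, TMM) in R 4.3.3 and p-values were adjusted over all genes tested. The comparisons among all groups but C (HS) shared a fit of 12 libraries (13892 genes), those within heat shock a fit of 6 (13149 genes), and the heat shock comparisons a fit of all 14 (14084 genes). The fits were also run on simulated counts drawn from their own estimates of spread. These counts held no library difference such as that of C (HS), so they do not test its effect. Levels between genes were compared by RPKM, within 1 group. Alternatives were RLE size factors, library totals, DESeq2 1.42.0, no filter, other sets of libraries, blocks for replicate number and for the class of junction reads, removal of a trend with exon length, and leaving out each library. Uniquely mapped reads, and 12 libraries for heat shock in rIIS animals, were added after the data were seen. The members and gene lists were chosen with earlier results of these data known. All 10 members, the RNAi targets, a list of 19 immune genes and the 3 genes most like each member are named whatever their values. A floor of 3 reads and 95% intervals of counts cover counting error only.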

Additional observations from a re-analysis of the deposited data

Results flagged for a closer look

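For 5 members the response to heat shock differed between rIIS animals (rIIS-C (HS) minus rIIS-C) and control animals (C (HS) minus C), by the edgeR test of the difference itself, which called 20.5% of all genes tested. The library difference of C (HS) enters this test and cannot be told apart from a difference in heat response. The difference on the log2 scale was 4.64 for *lys-4* (adjusted p = 5e-05), 7.95 for *lys-5* (adjusted p = 3.67e-05), 6.88 for *lys-6* (adjusted p = 0.0144), -3.49 for *lys-3* (adjusted p = 0.042) and -1.86 for *lys-7* (adjusted p = 0.0137). The values for *lys-5* and *lys-6* are fitted against 1 and 0 reads in C (HS) and depend on the prior count of the fit, so they give no size, and these genes may share reads with *lys-4*. *lys-6* passed the filter through groups where it was high, rIIS-C (HS) among them, so its call is no support. With uniquely mapped reads *lys-5* gave 6.75 (adjusted p = 0.00079) and *lys-6* 5.71 (adjusted p = 0.043). For *lys-3* the libraries of both heat-shocked groups differed widely from each other, with 8.94 and 33.2 CPM in C (HS) and 0.713 and 4.68 CPM in rIIS-C (HS).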

How the results depend on the processing

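Of 88 member results with a test, 57 were called, 35 of these under every alternative run and 22 not under all, of which 2 turned. With 2 libraries a group, the numbers of members called moved as follows. In daf-16i minus rIIS-C, 2 became 1 with library totals, all 14 libraries or only the groups compared, and 1 to 3 when a library was left out. In daf-16i minus C, 2 became 1 with uniquely mapped reads, with all 14 libraries and without any one library. In rIIS-C (HS) minus C (HS), 6 became 0 to 6 when a library was left out. In rIIS-C (HS) minus rIIS-C, 4 became 1 with only the groups compared, where 0.424% of all genes tested were called. The number was 6 in the fit of 12 libraries without C (HS), blocked by class of junction reads, where 21.2% were called. For the difference of heat responses, 5 became 3 with library totals or only the groups compared, and 2 to 6 when a library was left out. The cause was not tested.

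With library totals, the log2 fold change of *lys-1* turned to -0.25 and of *lys-8* to -0.10 in hsf-1i (HS) minus rIIS-C (HS), both called before. Other values that turned with library totals were not called before, except *sek-1* in skn-1i minus rIIS-C (-0.26). They were *lys-3* in daf-16i minus rIIS-C (-0.0597), *lys-2* in skn-1i minus rIIS-C (-0.81), *lys-4* in hsf-1i (HS) minus rIIS-C (HS) (-0.73), *lys-1* (0.56) and *lys-8* (0.81) in rIIS-C (HS) minus C (HS), *lys-7* in rIIS-C (HS) minus rIIS-C (-0.24), and *lys-1* (0.45) and *lys-2* (0.57) in the difference of heat responses. With a trend of exon length removed, *lys-1* (-0.0052) and *lys-6* (-0.0274) in rIIS-C minus C, *lys-4* (-0.0757) in hsf-1i (HS) minus rIIS-C (HS), *lys-8* (0.27) in rIIS-C (HS) minus C (HS), *lys-2* (0.11) and *lys-3* (0.0269) in hsf-1i (HS) minus C (HS) and *lys-2* (0.16) in the difference of heat responses turned. *lys-1* in rIIS-C minus C was -0.034 without a filter and -0.0099 with only these groups, and *lys-8* in rIIS-C (HS) minus C (HS) was 0.0012 with all 14 libraries. With a block for the class of junction reads *lys-6* in rIIS-C minus C was -0.0498 and *lys-3* in daf-16i minus rIIS-C was -0.0077.

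Leaving out 1 library, values that turned ranged between -0.19 and 0.20 (*lys-1*), -0.36 and 0.63 (*lys-3*) and -0.12 and 0.30 (*lys-6*) in rIIS-C minus C, -0.15 and 0.84 (*lys-3*) in daf-16i minus rIIS-C, -0.0705 and 0.22 (*lys-4*) in hsf-1i (HS) minus rIIS-C (HS), -0.22 and 0.23 (*lys-8*) in rIIS-C (HS) minus C (HS), -0.79 and 1.03 (*lys-3*) in hsf-1i (HS) minus C (HS), and -0.65 and 2.05 (*lys-3*) and -0.12 and 0.28 (*lys-7*) in rIIS-C (HS) minus rIIS-C.

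The replicate numbers of the labels did not pair the libraries, since 10 of 21 pairs of groups correlated above 0.1 in their replicate differences. A replicate block left the number of members called the same in every comparison except rIIS-C (HS) minus C (HS), where it was 5, and turned *lys-6* in rIIS-C minus C (-0.0775) and *lys-3* in hsf-1i (HS) minus C (HS) (0.19). Ordered by class of junction reads, 15 of 15 pairs exceeded 0.1. A block for the class of junction reads was not run in fits that hold C (HS).

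Counts over all genes moved more. They were 1528 against 522 to 2583 in rIIS-C minus C, 843 against 317 to 1525 in daf-16i minus rIIS-C, 5294 against 3229 to 8130 in hsf-1i (HS) minus rIIS-C (HS), 221 against 31 to 634 in daf-16i minus C, 3277 against 101 to 6247 in rIIS-C (HS) minus C (HS), 2798 against 370 to 6059 in hsf-1i (HS) minus C (HS), 7361 against 4876 to 8535 in C (HS) minus C, 311 against 55 to 2952 in rIIS-C (HS) minus rIIS-C and 2890 against 819 to 5748 for the difference of heat responses. With library totals the genes called higher and lower were 1112 and 8777, beside 3564 and 4247, in skn-1i minus rIIS-C, 732 and 7398, beside 2611 and 2683, in hsf-1i (HS) minus rIIS-C (HS), 996 and 7343, beside 3855 and 3506, in C (HS) minus C, 5094 and 469, beside 1370 and 1907, in rIIS-C (HS) minus C (HS), 3868 and 393, beside 1404 and 1486, for the difference of heat responses, 1402 and 7900, beside 3954 and 4318, in skn-1i minus C, 876 and 656, beside 620 and 908, in rIIS-C minus C, 306 and 433, beside 457 and 386, in daf-16i minus rIIS-C, and 121 and 248, beside 266 and 45, in rIIS-C (HS) minus rIIS-C.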
